A study of Mus musculus with 2 samples.

Results

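Muc13 and Dach1 are 2 of the 32285 genes counted in single blood progenitors of the mouse fetal liver, and both were found by symbol in each of the 2 libraries. They were chosen by measured values, since the ratios of these same libraries placed both among the lowest genes of bipotent and of mast cells. Their levels in those cells are therefore described here and not tested. The control library was labelled CD45.2(+) Brd9fl/fl and the knockout library CD45.2(+) Vav1-iCre Brd9fl/fl, both from C57BL/6 embryos at E14.5 and both from cells of the fetal liver that were Lineage- and c-Kit+. Floxed Brd9 alleles were thus shared by both groups, and the recombinase was present in the knockout group only, so an effect of the recombinase alone and loss of Brd9 cannot be told apart. Vav1-iCre is driven by regulatory elements of Vav1, which are active in blood cells. The Brd9 protein carries a bromodomain and belongs to the non-canonical form of BAF, a complex that moves nucleosomes. With 1 library per genotype there is no replicate check, no p-value is given, and the 95% intervals beside values reflect counting error alone. The intervals of levels and ratios leave out uneven spread of a gene's UMIs over cells, so they are too narrow where that spread is large. How many embryos were pooled for a library is not stated in the labels.

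Muc13 encodes a transmembrane mucin, a heavily O-glycosylated protein of the cell surface that is best known from the epithelium of the gut. Dach1 encodes a nuclear protein of the dachshund family, which works with Eya proteins and corepressor complexes to control transcription. In adult mouse bone marrow Dach1 is known as a gene of early progenitors that is lost as cells turn to the lymphoid lineage. Bipotent megakaryocyte-erythroid progenitors (MEP) give rise to platelet-forming and red cells, and mast cell and basophil progenitors share the factor Gata2 with them.

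Muc13 (ENSMUSG00000022824) lies on the plus strand of chromosome 16 from 33794037 to 33819934, a span of 25898 bases. Dach1 (ENSMUSG00000055639) lies on the minus strand of chromosome 14 from 97786853 to 98169765 and spans 382913 bases. Coordinates are those of GENCODE M21 on mm10. Because both genes were low in the same cells, the 250 bases before the annotated gene start are shown, from RefSeq on GRCm38.p6, 5′ to 3′ on the strand of the gene, with capitals for GATAA on either strand (the core recognised by GATA factors) and for CANNTG (the E-box bound by Tal1 and related factors).
Muc13, chr16:33793787-33794036, plus strand: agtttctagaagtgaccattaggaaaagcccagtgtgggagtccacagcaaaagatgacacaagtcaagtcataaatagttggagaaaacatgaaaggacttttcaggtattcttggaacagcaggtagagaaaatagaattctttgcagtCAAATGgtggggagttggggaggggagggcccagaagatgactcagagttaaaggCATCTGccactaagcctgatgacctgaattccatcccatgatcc
Dach1, chr14:98169766-98170015, minus strand: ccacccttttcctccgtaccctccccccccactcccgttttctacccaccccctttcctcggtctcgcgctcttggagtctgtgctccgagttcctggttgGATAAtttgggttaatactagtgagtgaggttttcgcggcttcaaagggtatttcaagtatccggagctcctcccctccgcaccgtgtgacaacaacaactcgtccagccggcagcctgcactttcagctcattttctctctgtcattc
The Dach1 window held 13 CpG pairs at 54.8% GC, and the Muc13 window held 0 CpG pairs at 44.8% GC. A second Muc13 start in RefSeq, whose window from 33794239 to 33794488 is not printed, had 4 CpG pairs at 47.6% GC. Over the 250 bases before the start, GATAA matched 1 time in Dach1 and 0 times at either Muc13 start. Over the same stretch, 22.6% of 32851 mouse promoters held it. CANNTG matched 2 times at each Muc13 start and 0 times in Dach1, and 66.2% of promoters held it. These matches describe letters and do not show binding. A longer GATA core and motifs named RUNX, KLF, MEIS, AP-1 and CACCC were also searched and are not reported here.

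The knockout library held 7289 barcodes with 271350214 UMIs (unique molecular identifiers, which count captured RNA molecules) while 7399 barcodes with 292972312 UMIs made up the control. Filters left 6752 and 6878 cells for analysis, with median depths of 36001.5 and 38520.5 UMIs per cell. The libraries shared 16 barcodes, 14 of them among kept cells. Levels are UMI counts scaled to a total of 1e6 (CPM), and Brd9 stood at 7.06 CPM in knockout and 27.2 CPM in control cells. Its log2 ratio, knockout over control, was -1.95 (-2.02 to -1.87) overall and -2.02 in MEP cells, -1.40 in mast cells, -1.26 in stem cells and -2.06 in erythroid cells. The sources used here do not give the deleted exons, so a 3' count may include transcripts of the recombined allele. Kit, the antigen of the sort, stood at 63.7 and 66.9 CPM over all cells. Once every cell had been reduced to 18501 UMIs, 55.8% and 56.2% of cells held a Kit UMI. By class, Kit was at 96.4 and 118 CPM in MEP, 110 and 146 CPM in mast, 238 and 193 CPM in stem and 52.3 and 55.3 CPM in erythroid cells. Xist marked 58.9% of knockout and 22.9% of control cells as female, so the libraries held embryos of both sexes in different mixes.

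Over all cells Muc13 was at 3.87 CPM in knockout and 12.5 CPM in control cells. Dach1 was at 9.16 and 19.5 CPM. Both genes were thus lower in the knockout library as a whole, with log2 ratios of -1.69 (-1.80 to -1.59) for Muc13 and -1.09 (-1.16 to -1.02) for Dach1. Neither gene was spread evenly over the cell classes, which were rebuilt here from clusters made without Muc13, Dach1 and Brd9 and whose names mean likeness to that type. In the control library Muc13 was highest in MEP cells at 104 CPM (99.6 to 110), followed by megakaryocyte cells at 95.1 CPM (82.9 to 109), whose intervals overlap. Mast cells followed at 68.3 CPM, cluster 16 (led by Slco3a1, Cd34 and Tespa1) at 27.8, stem cells (HSC/MPP) at 13.2, granulocyte cells at 9.25, monocyte-dendritic cells at 3.21 and erythroid cells at 2.65. The intervals of stem and granulocyte cells overlapped, as did those of monocyte-dendritic and erythroid cells.

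The control order of Dach1 differed from that of Muc13 at its top and in its lower part. Megakaryocyte cells were highest at 183 CPM (166 to 202), then MEP cells at 120 CPM (114 to 125) and mast cells at 100 CPM (91.8 to 109). Granulocyte cells at 68.3 CPM (63.8 to 73.0) and stem cells at 64.0 CPM (55.2 to 73.8) could not be told apart. Cluster 16 followed at 49.7 CPM, with monocyte-dendritic cells at 4.65 and erythroid cells at 2.83. Dach1 thus reached stem and granulocyte cells at a larger fraction of its own highest level than Muc13 did.

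**Figure D1:**
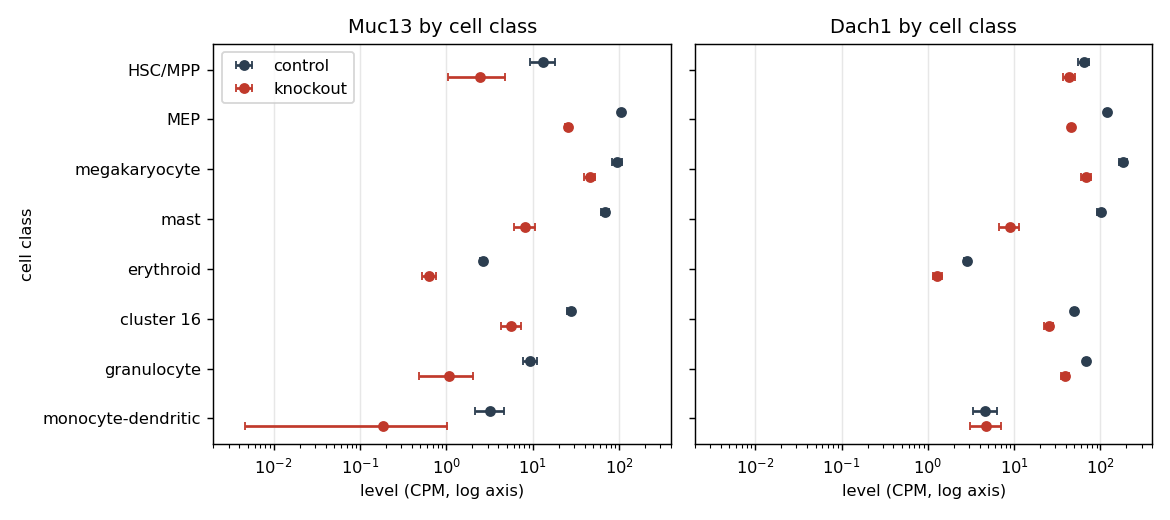
Level of Muc13 (left) and Dach1 (right) in CPM on a log axis for each cell class; points are the summed UMIs of 1 library and bars are exact 95% Poisson intervals. Knockout points lie left of control points in every class for Muc13, and in every class but monocyte-dendritic cells for Dach1.

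MEP cells, 680 in the knockout and 464 in the control library, had Apoe, Parm1 and Muc13 among their leading genes, and all 9 of the markers listed for them were detected in each library. Muc13 was counted 575 times in knockout and 1683 times in control MEP cells, which is 25.6 CPM (23.6 to 27.8) against 104 CPM. This is a 4.08-fold lower level, a log2 ratio of -2.03 (-2.17 to -1.89). Dach1 was counted 1025 and 1926 times, which is 45.7 CPM (42.9 to 48.6) against 120 CPM. Its level was 2.62-fold lower, a log2 ratio of -1.39 (-1.50 to -1.28). Of 3498 genes that reached 50 CPM in at least 1 library, 0.143% were at least 2-fold lower in knockout MEP cells, a count of 5 that holds both genes by the way they were picked. Ordered from the lowest, Hbb-bt (a beta-globin) was at -2.15, Muc13 and Dach1 came next, and Apoe (a lipid carrier) was at -1.28. The central 90% of genes lay between -0.16 and 0.17.

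The early erythroid markers summed to 1068 CPM in knockout and 1281 CPM in control MEP cells, and all 10 were lower in the knockout library. MEP cells were therefore cut into terciles by the share of their UMIs from these markers, a cut chosen after seeing the data. In the lowest tercile, Muc13 was at 32.7 and 133 CPM, and in the highest at 18.3 and 83.0 CPM. Both libraries thus had less Muc13 where the erythroid markers were higher, and the log2 ratio was -2.02, -2.20 and -2.18 from the lowest to the highest tercile. Dach1 went from 67.8 and 202 CPM in the lowest tercile to 30.9 and 75.5 CPM in the highest, with log2 ratios of -1.58, -1.70 and -1.29. The lower level of both genes was present in each tercile.

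**Figure D2:**
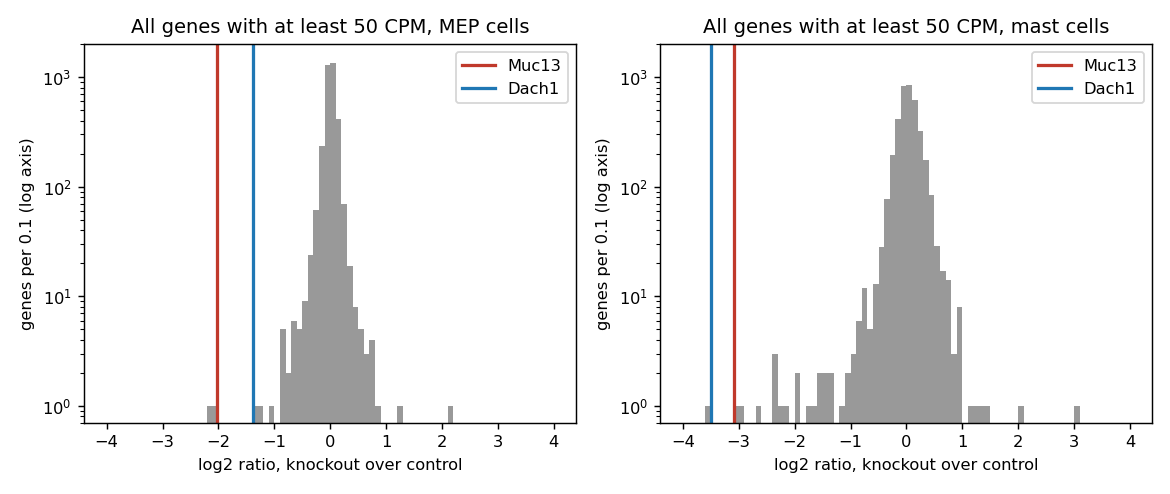
Number of genes (log axis) per 0.1 of the log2 ratio, knockout over control, among genes that reached 50 CPM in a library, in MEP (left) and mast cells (right); coloured lines mark Muc13 and Dach1. Muc13 at -2.03 and Dach1 at -1.39 in MEP cells, and at -3.08 and -3.50 in mast cells, stand left of the bulk of genes.

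Mast cells, 254 in the knockout and 171 in the control library, were led by Ifitm1, Lmo4, Cpa3 and Ms4a2 and had the lowest ratio of each gene among stem, MEP, mast and erythroid clusters, an order that turned where cells were assigned by marker level. Muc13 was counted 51 times against 348 times, at 8.07 CPM (6.01 to 10.6) and 68.3 CPM (61.4 to 75.9). Dach1 was counted 56 times against 511 times, at 8.86 CPM (6.69 to 11.5) and 100 CPM (91.8 to 109). The levels were 8.47-fold lower for Muc13, a log2 ratio of -3.08 (-3.54 to -2.66), and 11.3-fold lower for Dach1, a log2 ratio of -3.50 (-3.93 to -3.10). In this class 0.589% of 3735 genes were at least 2-fold lower, 22 in all, and the 2 lowest were Dach1 and Muc13. Just behind them were Hbb-bt at -2.93, the antisense gene Gm15657 at -2.65 and Apoc1 at -2.38. The 2 intervals overlap, so the 2 ratios were not separated in mast cells.

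The mast classes of the libraries differed in more than these genes. Mast and basophil markers summed to 2446 CPM in knockout and 2887 CPM in control cells, with 9 of 12 lower. Srgn gave 1262 and 1564 CPM of these sums. Of the others, Cpa3 was higher in the knockout library at 604 and 470 CPM, and Mcpt8 was lower at 13.8 and 68.7 CPM. The bipotent markers summed to 1474 and 2340 CPM, a gap carried by Apoe at 466 and 1366 CPM, since the other 8 summed to 1008 and 974 CPM. The early erythroid markers summed to 367 and 617 CPM with 9 of 10 lower, and the median cell was at 287 and 331 CPM. The late erythroid markers summed to 135 and 292 CPM with 10 of 10 lower, although the median cell was at 119 and 124 CPM. Mast cells were therefore cut into terciles by the erythroid and bipotent markers without Apoe, after seeing the data, which gave 89, 81 and 84 knockout and 53, 60 and 58 control cells. From the lowest to the highest tercile, the Muc13 ratio was -3.22, -2.59 and -3.38 and the Dach1 ratio -3.90, -3.67 and -2.92. Both genes were thus lower in each tercile. With Apoe among the markers, which itself differs between the libraries, the lowest tercile held 128 knockout and 14 control cells and the highest 43 and 99. The ratios were then -2.13, -3.54 and -2.51 for Muc13 and -4.06, -3.01 and -2.85 for Dach1, and in the lowest tercile 1 control cell held 76.7% of the Dach1 UMIs. Where cells were assigned by marker level without clusters, giving 94 knockout and 80 control mast cells, the ratio of Dach1 was -1.16 in mast against -1.51 in MEP cells, and that of Muc13 -2.07 against -2.39. The part that these marker differences play in the mast ratios was not tested.

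Stem and multipotent cells (HSC/MPP), 167 and 155 cells led by Mecom, Adgrl4 and Hlf, set the 2 genes apart. Muc13 was counted 8 times in the knockout and 39 times in the control class, at 2.42 CPM (1.05 to 4.77) and 13.2 CPM (9.39 to 18.1), a log2 ratio of -2.45 (-3.76 to -1.33). Dach1 was counted 143 and 189 times, at 43.3 CPM (36.5 to 51.0) and 64.0 CPM (55.2 to 73.8), a log2 ratio of -0.56 (-0.89 to -0.24). The interval of Dach1 lies wholly above that of Muc13, so the ratio was closer to 0 for Dach1 in these cells by more than counting error. Of 3806 genes with at least 50 CPM, 0.21% were at least 2-fold lower in stem cells. Dach1 was the 34th lowest of them, and Muc13 did not reach 50 CPM in either library. When each stem cell was given equal weight, the ratio of Dach1 was -0.17, and with coarser clusters, which give 388 and 415 stem cells, it was -0.98. The size of the Dach1 difference in stem cells therefore depends on how cells are summed and chosen. In the same cells the late erythroid markers summed to 247 CPM in knockout and 864 CPM in control cells with 10 of 10 lower. Of these, Hbb-bt alone was at 77.8 and 553 CPM. The granulocyte-monocyte markers summed to 499 and 783 CPM with 6 of 7 lower. The part of both marker lists in these ratios was not tested.

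Megakaryocyte cells, 117 and 75 cells with Pf4 and Rab27b among their leading genes, had Muc13 at 45.6 and 95.1 CPM, a log2 ratio of -1.06 (-1.36 to -0.76). Dach1 stood at 68.2 and 183 CPM there, a log2 ratio of -1.43 (-1.66 to -1.19). In this class 0.269% of 3713 genes were at least 2-fold lower, 10 in all, Dach1 being the 5th and Muc13 the 8th lowest. The ratio of Muc13 in megakaryocyte cells lay above its ratio in MEP cells with no overlap of the intervals, whereas the intervals of Dach1 overlapped. Granulocyte-monocyte markers summed to 51.4 and 191 CPM in megakaryocyte cells, with 6 of 7 lower, and their part was not tested.

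The erythroid class held 4695 knockout and 4809 control cells in 14 clusters and had low levels of both genes. Muc13 was counted 123 and 559 times, at 0.633 and 2.65 CPM, a log2 ratio of -2.06 (-2.36 to -1.78). Dach1 was counted 250 and 596 times, at 1.29 and 2.83 CPM, a log2 ratio of -1.13 (-1.35 to -0.92). Both were far under the 50 CPM at which genes were ranked, where 0.0582% of 3436 genes were at least 2-fold lower. Clusters 1 and 6, both led by Kcng2, Gm15915 and Ass1, held 94 of the knockout and 466 of the control Muc13 UMIs. In cluster 1 Muc13 stood at 2.18 and 12.0 CPM, and in cluster 6 at 1.69 and 15.7 CPM. Clusters 0 and 8 were mostly of knockout cells, with 803 and 409 against 41 and 26, while clusters 3 and 18 were mostly of control cells, with 508 and 620 against 40 and 74, so parts of the class were not matched between libraries.

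Along erythroid maturation, followed by the share of UMIs from alpha-globin, both genes were highest in the 2 least mature deciles (10 equal groups). In the lowest decile of cells Muc13 was at 1.997 CPM (1.44 to 2.70) in knockout and 13.1 CPM (11.5 to 14.7) in control cells, and Dach1 at 3.09 and 8.62 CPM, with knockout Dach1 at 3.15 CPM in decile 2. In decile 3 Muc13 was at 0.798 and 2.99 CPM, and Dach1 at 1.27 and 3.62 CPM. From decile 4 on, the intervals of Muc13 overlapped between libraries, and so did those of Dach1 except in decile 9. Decile by decile, the levels of the 2 libraries were thus separated mainly in the 3 least mature ones. Overlap of intervals in the others does not show equal levels. Over terciles, the log2 ratio of Muc13 was -2.28 in the lowest, -0.81 (-1.60 to -0.05) in the middle and -2.72 (-4.70 to -1.19) in the highest, the last from 4 against 26 UMIs. For Dach1 the terciles gave -1.30, -0.73 and -1.02. Shares in the highest tercile are used below as a measure of free RNA, and the part of free RNA in its ratios was not tested.

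**Figure D3:**
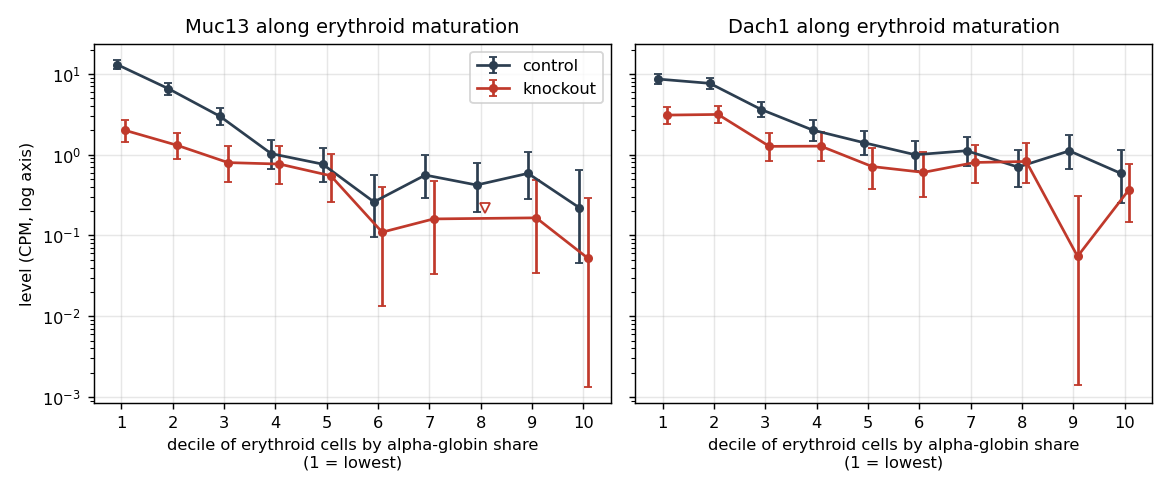
Level of Muc13 (left) and Dach1 (right) in CPM on a log axis in deciles of the erythroid cells ordered by alpha-globin share, with exact 95% Poisson intervals; an open triangle marks the upper limit where the count was 0. Control Muc13 goes from 13.1 CPM in the first decile to 0.220 CPM in the last and knockout Muc13 from 1.997 to 0.0526 CPM.

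Outside these classes, Muc13 was lower in the knockout library in cluster 16, at 5.66 and 27.8 CPM, and in granulocyte cells, at 1.06 and 9.25 CPM (9 against 117 UMIs). Monocyte-dendritic cells held 1 Muc13 UMI in the knockout and 29 in the control library, a log2 ratio of -4.13 (-9.49 to -1.54). Dach1 had ratios closer to 0 in these 3 classes: -0.99 (-1.19 to -0.79) in cluster 16, -0.81 (-0.99 to -0.62) in granulocyte cells and 0.03 (-0.73 to 0.77) in monocyte-dendritic cells. The granulocyte class, led by S100a9 and S100a8, was cut into terciles by the share of UMIs from those 2 genes, again after seeing the data. Dach1 stood at 17.8 and 59.6 CPM in the lowest tercile, at 39.2 and 51.2 CPM in the middle and at 76.8 and 99.7 CPM in the highest. Its log2 ratio was -1.75 (-2.15 to -1.35) in the lowest tercile, -0.39 in the middle and -0.38 (-0.64 to -0.11) in the highest. By these values Dach1 was highest in the granulocyte cells with most S100a8 and S100a9. Its ratio was farthest from 0 in those with least. The intervals of the lowest and highest terciles do not overlap, but they leave out the uneven spread of Dach1 over cells. In the lowest tercile the top cell of each library held 40.8% of knockout and 11.8% of control Dach1 UMIs. The lack of overlap may therefore not separate the terciles. In the whole class the granulocyte-monocyte markers summed to 10667 and 16308 CPM with 7 of 7 lower, and 7 of 8 neutrophil markers were lower. The part of these markers was not tested.

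Shares of cells with a UMI were also lower in the knockout library. After reduction to 18501 UMIs, 30.4% of knockout (26.9 to 34.1) and 78.2% of control MEP cells (74.1 to 82.0) held Muc13, and 24.7% and 51.2% held Dach1. In mast cells 10.9% of knockout and 60.9% of control cells held Muc13, and 10.9% and 39.1% held Dach1. The ratio of shares in mast cells was 0.179 for Muc13 and 0.280 for Dach1, whereas the log2 ratio of level was farther from 0 for Dach1, with intervals that overlap. In stem cells, of which only 85 and 66 were deep enough, the shares were 3.53% and 13.6% for Muc13 and 18.8% and 24.2% for Dach1. The intervals of the stem shares overlapped for both genes. As a measure of free RNA, the tercile of erythroid cells with most alpha-globin held Muc13 in 0.127% and 0.656% and Dach1 in 0.507% and 1.44% of cells, at median depths of 35058 and 35992.5 UMIs, against 30315.5 and 32745.5 in MEP and 23590.5 and 28477 in mast cells. Shares in MEP and mast cells stood far above those values in both libraries. Without the reduction, the MEP shares were 44.0% and 88.6% for Muc13 and 32.2% and 58.2% for Dach1.

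The difference lay both in how many cells held a UMI and in how many each of them held. Among MEP cells with Muc13, the mean was 1.59 UMIs in knockout and 2.45 in control cells. Control MEP cells with 3 to 5 Muc13 UMIs made up 26.3%, against 2.61% in the knockout. Dach1 was more unevenly spread over cells than Muc13. Its variance was 9.86 times its mean in control MEP cells and 7.02 times in knockout ones, while for Muc13 these values were 1.52 and 2.02. In control MEP cells 48.8% had no Dach1 UMI while 13.5% had at least 6, and the highest cell had 68. The decile of control MEP cells with most Dach1 held 54.7% of its UMIs, and the same measure for Muc13 was 29.3%. In mast cells with Dach1 the mean was 1.65 UMIs in knockout and 5.37 in control cells. None of the 183 knockout mast cells deep enough had 6 or more after the reduction, against 12.8% of 133 control ones.

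**Figure D4:**
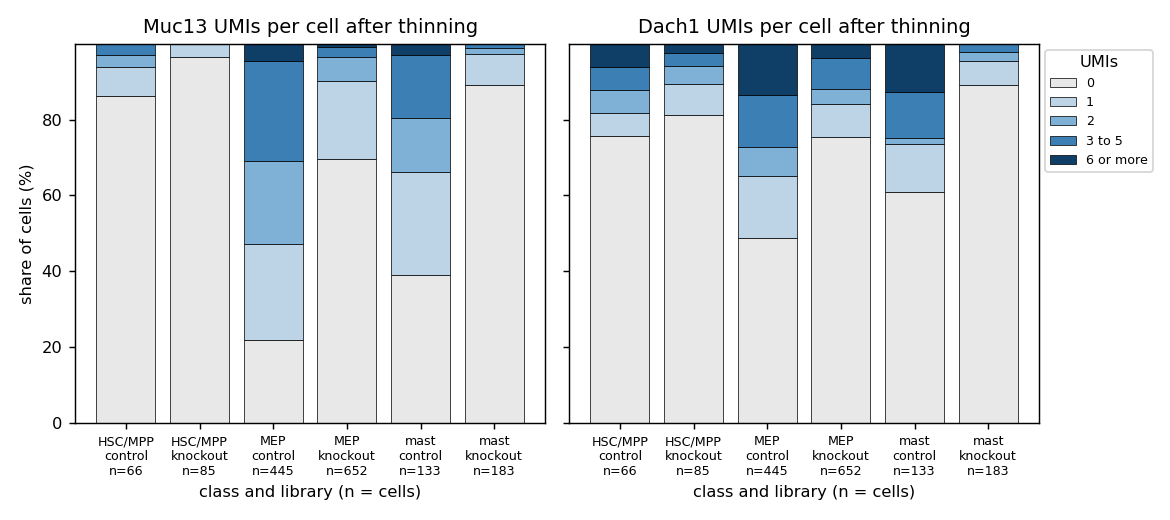
Share of cells (%) with 0, 1, 2, 3 to 5 and 6 or more UMIs of Muc13 (left) and Dach1 (right) after each cell was reduced to 18501 UMIs, in stem (HSC/MPP), MEP and mast cells of each library. The part of MEP cells with no Muc13 UMI is 21.8% in the control and 69.6% in the knockout library.

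After the same reduction, both genes were found together in 41.3% of control MEP cells (36.7 to 46.1) and 10.3% of knockout ones (8.05 to 12.9). If the 2 genes were unrelated across cells, 40.1% and 7.50% would hold both. In mast cells 28.6% of control and 3.28% of knockout cells held both, where unrelated genes would give 23.8% and 1.19%. The correlation of their UMIs across cells was weak, with Pearson's r of 0.13 in control and 0.22 in knockout MEP cells over 445 and 652 cells of 1 library each, and 0.30 and 0.25 in mast cells. With so few UMIs per cell, a count of 0 does not show that a cell lacks the gene.

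Cells of the 2 sexes come from different embryos, and comparing within 1 sex reduces the difference in sex mix. Male cells were called by low Xist alone, so that group may hold some female cells. Muc13 in MEP cells was at 26.4 and 106 CPM in female and at 25.1 and 105 CPM in male cells, log2 ratios of -2.002 and -2.056. Female and male MEP cells thus gave nearly the same value for Muc13. In mast cells the Muc13 ratio was -2.67 in female and -3.92 in male cells, in megakaryocyte cells -1.39 and -0.82, and in erythroid cells -2.10 and -2.55. Within knockout mast cells Muc13 was higher in female cells, by a log2 ratio of 1.21 (0.29 to 2.22). Dach1 in MEP cells was at 53.0 and 88.8 CPM in female cells, a ratio of -0.74 (-0.93 to -0.55), and at 38.3 and 130 CPM in male cells, a ratio of -1.76 (-1.95 to -1.59). The female ratio did not reach the 2-fold mark, and the 2 intervals do not overlap. Within the control library Dach1 was lower in female than in male MEP cells, by a log2 ratio of -0.55 (-0.73 to -0.38), and within the knockout library it was higher in female cells, by 0.47 (0.27 to 0.67). In megakaryocyte cells the Dach1 ratio was -0.10 (-0.55 to 0.36) in female and -2.27 (-2.70 to -1.87) in male cells, and in erythroid cells -0.67 and -1.85. Mast cells differed from this, with Dach1 at -3.68 in female and -3.85 in male cells. Sex and embryo cannot be told apart here. Counting intervals cover neither differences between embryos nor the uneven spread of Dach1 over cells. Dach1 intervals that do not overlap may therefore still not separate the sexes.

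Near Muc13, the antisense gene Gm15657 (minus strand, 33770430 to 33796874) runs over its start. In MEP cells Gm15657 was at 7.97 and 40.7 CPM, a log2 ratio of -2.35 (-2.60 to -2.11), and in mast cells at 8.23 and 51.5 CPM, a ratio of -2.65 (-3.10 to -2.21). Gm15657 was lower in knockout cells of all 8 classes, with an interval that reached 0 in monocyte-dendritic cells alone. The sources used here do not say whether the counting used strand. Whether reads from the stretch the 2 genes share were kept apart is therefore not known here. Gm15657 UMIs were found in 48.9% of control MEP cells with a Muc13 UMI and in 42.3% of those without, against 18.7% and 9.25% in the knockout library. The other 6 genes within 500000 bases that had at least 100 UMIs over both libraries had MEP log2 ratios between 0.00 and 0.52, and the rest, Slc12a8, Itgb5 and Gm15829, had at most 10 UMIs. Heg1 (a junction receptor of the endothelium) was at 51.6 and 36.0 CPM, a log2 ratio of 0.52, the zinc finger gene Zfp148 at 114 and 105 CPM, the sorting nexin Snx4 at 39.7 and 36.4 CPM, and Umps, an enzyme of pyrimidine synthesis, at 138 and 128 CPM. No counted gene with a position in the annotation used lay within 500000 bases of Dach1 on either side, and 32158 of 32285 had a position.

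**Figure D5:**
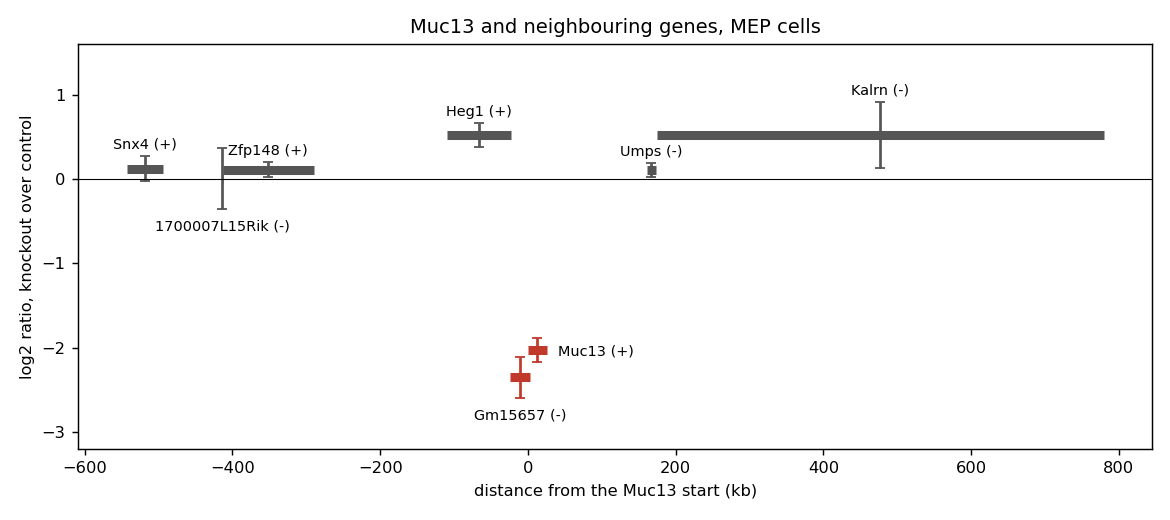
Log2 ratio, knockout over control, in MEP cells for Muc13 and the genes within 500 kb that had at least 100 UMIs over both libraries, by distance from the Muc13 start (kb); thick lines span each gene, bars are 95% counting intervals, and + or - is the strand. Muc13 at -2.03 and Gm15657 at -2.35 are the only 2 below -1.

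Other genes of the same families were read from lists. Of 18 membrane mucins and sialomucins, 16 were counted in the libraries, and 2 reached 50 CPM in MEP and 6 in mast cells. Muc13 was the only one of them past 2-fold in either class, where 0.143% of MEP and 0.589% of mast genes were at least 2-fold lower and 0.0572% and 0.161% at least 2-fold higher. Spn (CD43, the leukosialin of blood cells) was at 48.3 and 58.9 CPM in MEP cells and at 87.3 and 80.1 CPM in mast cells, and its MEP ratio of -0.28 lay outside the central 90% of genes. In mast cells Cd34 (a sialomucin of stem cells) had a log2 ratio of 0.32, Selplg (the selectin ligand PSGL) 0.14 and Cd24a (a small surface sialoprotein) -0.49. The list's median was 0.13 in mast cells, against 0.03 over all genes of the class. Enzymes of O-glycosylation reached 50 CPM in 2 cases in MEP and 3 in mast cells, with 0 past 2-fold. Galnt1 and Galnt7, which start such glycans, had ratios of -0.06 and -0.03 in MEP cells, while St3gal1, which caps them with sialic acid, had 0.21 in mast cells.

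Dach1 was the only one of 12 genes listed for the Dach and Eya network at 50 CPM or more in MEP or mast cells. Its paralog Dach2 stood at 14.3 and 13.2 CPM in MEP cells and at 12.8 and 15.9 CPM in mast cells, and the Eya family phosphatase Eya3 at 42.9 and 40.3 CPM and at 43.5 and 45.8 CPM. Ski, a corepressor with a Dachshund-like domain, stood at 19.6 and 19.1 CPM in MEP cells. Among 9 corepressor genes, 6 were ranked in MEP and 7 in mast cells, with 0 past 2-fold. Of all ranked genes, 0.143% in MEP and 0.589% in mast cells were at least 2-fold lower, and 0.0572% and 0.161% at least 2-fold higher. A count of 0 among so few genes is near those shares. Ncor1 (the nuclear receptor corepressor) had log2 ratios of 0.11 and 0.06, and the deacetylases Hdac1 and Hdac2 had 0.01 and 0.02 in MEP cells.

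Of 17 early erythroid-megakaryocyte-mast progenitor genes, 12 were ranked in MEP and 14 in mast cells, and Apoe was the 1 past 2-fold in each. Apoe was at 465 and 1129 CPM in MEP cells and at 466 and 1366 CPM in mast cells. Vamp5, a vesicle SNARE, had ratios of -0.31 and -0.56, Angpt1, a ligand of the Tie2 receptor, 0.22 and 0.13, and Ikzf2 (Helios) -0.24 and 0.15. In MEP cells 7 of the 12 were below 0 and in mast cells 5 of the 14, with medians of -0.03 and 0.14. The share of all genes at least 2-fold lower was 0.143% and 0.589%. Of 17 erythroid genes, 8 were ranked in MEP cells with 0 past 2-fold, and 6 in mast cells, all below 0 with a median of -0.44. Carbonic anhydrase gene Car2 was the 1 past 2-fold in mast cells, at 30.4 and 117 CPM, and the red cell regulator Klf1 was at 30.1 and 60.1 CPM.

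The genes whose levels were most like each member were ranked by Pearson's r of log2(CPM + 1) over 14 points, 7 classes in each of 2 libraries, among 5011 genes. These points share libraries, and r is given as a description. For Muc13 the highest were Gm15657 (0.93), Apoe (0.91), Bora (0.89), Cdk6 (0.88) and Snhg8 (0.85). Of these, Apoe and Gm15657 had log2 ratios of at most -1 in stem, MEP, mast and erythroid cells alike, whereas Bora, a mitotic kinase activator, was at -0.25 and Cdk6, a G1 kinase, at -0.18 in MEP cells. For Dach1 the highest were Ppic (0.89), Pdcd4 (0.88), Ocrl (0.86), Myb (0.85) and Pex7 (0.84). None of these 5 was past 2-fold in the 4 classes. Of all ranked genes, 0.21%, 0.143%, 0.589% and 0.0582% were at least 2-fold lower in stem, MEP, mast and erythroid cells. Myb, a regulator of blood progenitors, had ratios of -0.16 in MEP and -0.33 in mast cells, and Pdcd4, an inhibitor of translation, -0.19 and -0.71. Muc13 and Dach1 had an r of 0.74 with each other over the 14 points and 0.86 over the 7 control classes. Dach1 was 28th among the genes most like Muc13, and Muc13 was 41st among those most like Dach1.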

How the data were processed

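Cell Ranger 7.2.0 and mm10 are named in the submitters' processing notes. The authors deposited UMI counts per gene and barcode, as raw whole numbers. The sources used here do not state the handling of intronic or antisense reads. Cells with at least 1000 genes, 2000 UMIs and at most 10% mitochondrial UMIs were kept (7001 and 7100), and Scrublet removed 247 and 218 doublets. Cells with at least 1% hepatoblast UMIs (2 and 4) were left out, a step added after seeing the data. Both libraries were clustered with scanpy 1.11.5 (3000 variable genes, 30 components, 15 neighbours, Leiden resolution 1), without Muc13, Dach1, Brd9, cell-cycle, sex-linked, mitochondrial and ribosomal genes. Names for 21 clusters came from 16 marker lists, through top genes or, failing 2 of those, relative marker level. Cluster 16 had none of its list's markers among its top 10 genes and stays unnamed.

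UMIs were summed per class and library and scaled to 1e6 (CPM). Ratios have conditional exact intervals, levels exact Poisson intervals and shares Clopper-Pearson intervals, and the ratio calculation was checked on simulated counts. These were Poisson counts, which the intervals assume, so the check does not cover counts spread unevenly over cells. Shares used 18501 UMIs per cell, percentile 5, leaving out 365 and 316 shallower cells. Female cells had at least 3 Xist and at most 1 Y-linked UMI. Male cells had at most 1 Xist UMI, and no Y-linked UMI was required of them. The members and gene lists were chosen with earlier results of these data known. Named genes are both members, Brd9, Kit, up to 4 members per list with the highest mean CPM, list members past 2-fold in MEP or mast cells and the 5 most alike genes. Other named genes (Gm15657, locus neighbours, genes beside the members in rank, Dach2 family genes) were named after their values were seen. Some genes that these rules name are not reported here.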

Additional observations from a re-analysis of the deposited data

Results flagged for a closer look

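Dach1 in monocyte-dendritic cells had a log2 ratio of 0.031 (-0.73 to 0.77), on the other side of 0 from its ratio in the other 7 classes. The difference between classes was not tested. It rests on 26 knockout and 42 control UMIs, of which 1 cell held 30.8% and 38.1%. The ratio was 1.30 (-0.15 to 3.06) in female and -1.04 (-2.76 to 0.32) in male cells of this class.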

How the results depend on the processing

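All 130 log2 ratios of the 2 genes under alternatives, in stem, MEP, mast and erythroid cells, were below 0. Of them 39 fell outside the counting interval of the main value, though the intervals of some overlap it. Of 95 ratios of shares 93 were below 1, the exceptions being Dach1 in stem cells, and 17 fell outside that interval. Muc13 in MEP cells was at -2.44 with clusters at resolution 0.6, -2.43 with doublets kept, -2.39 with marker gates in place of clusters, and -2.20 and -2.18 in the middle and highest terciles. Muc13 in mast cells was at -2.07 with marker gates, -3.92 in male cells and -2.13, -3.54 and -2.51 in terciles, and -2.59 in the middle tercile cut without Apoe. In erythroid cells Muc13 was at -1.65 (resolution 0.6), -1.67 (doublets kept), -1.52 (marker gates) and -2.55 (male cells). Dach1 in stem cells was at -0.98 and -0.97 at resolutions 0.6 and 1.5, -0.97 with doublets kept, -0.93 with marker gates, -0.90 in female cells and -0.17 as a mean of cells. Dach1 in MEP cells was at -1.54 and -1.25 at those resolutions, -1.09 with doublets kept, -1.25 by projection on control clusters, -1.51 with marker gates, -0.74 in female and -1.76 in male cells, and -1.58 and -1.70 in the lowest and middle terciles. Dach1 in mast cells was at -2.99 when the left-out genes were kept in the clustering, -1.16 with marker gates, -4.06, -3.01 and -2.85 in terciles, and -2.92 in the highest tercile cut without Apoe. Dach1 in erythroid cells was at -1.47 (resolution 1.5), -0.67 (female) and -1.85 (male cells). The cause was not tested. The number of genes at least 2-fold lower went from 8 to 20 in stem, 5 to 19 in MEP, 22 to 52 in mast and 2 to 10 in erythroid cells with a minimum of 20 CPM, and to 2226, 1945, 1930 and 2091 with no minimum, which adds genes with few UMIs. Of the stem, MEP, mast and erythroid classes, depth limits the stem class most, with 8 Muc13 UMIs in the knockout library. No paired analysis was possible because each genotype had 1 library and the labels give no replicate numbers.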

Other observations

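Beside Muc13 and Dach1, the lowest ratios in MEP cells belonged to genes of several kinds, read from the ranked list after its values were seen. The potassium channel Kcnn4 was at 62.4 CPM in knockout and 116 CPM in control cells, the interferon gamma receptor Ifngr1 at 61.2 and 112 CPM, and Cd48, a surface protein of the SLAM family, at 42.6 and 75.1 CPM. In mast cells the interferon-induced membrane protein Ifitm1 was at 504 and 2583 CPM and the basophil protease Mcpt8 at 13.8 and 68.7 CPM.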
